A study of Mus musculus with 6 samples.

Results

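The Hedgehog genes described here are 10 members of the pathway, taken by name from a table of 24736 mouse genes measured by RNA-seq in 6 libraries. They are the ligands Shh and Ihh, the receptor Ptch1, the signal transducer Smo, the co-receptor Gas1, the transcription factors Gli1, Gli2 and Gli3, and the inhibitors Sufu and Hhip. In EpiLCs, Gli2 was 9.78-fold and Gli1 4.13-fold lower than in ESCs, whereas Smo was 2.09-fold and Sufu 1.66-fold higher. Gli3 was 1.48-fold higher, but did not pass the test when some single libraries were left out. Both ligands were close to the detection limit, with the exception of Shh in 1 EpiLC library. All 10 members had a row in the table, and 8 had enough counts to be tested. Shh and Ihh did not pass the filter on low counts and are given by their values alone.

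Hedgehog ligands are secreted proteins that bind Patched receptors. Without ligand, PTCH1 holds Smoothened (SMO) inactive, and the GLI proteins, kept in check by SUFU, are in part cut to a form that represses transcription. With ligand, SMO enters the primary cilium and full-length GLI proteins activate transcription, among others of Gli1 and Ptch1 themselves, which are therefore widely used as readouts of the pathway. GLI2 is mainly an activator, GLI3 is the main source of the repressor form, and GLI1 acts only as an activator. In the early mouse embryo Ihh is known from the visceral endoderm and Shh from the node and notochord.

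The study differentiated mouse ESCs to EpiLCs, which model the epiblast after implantation, to follow how epiblast progenitors come to respond to WNT. The wild-type ESCs were of the XY HM1 TetON line, a single male line that all samples share. They were sampled at 0 h, undifferentiated, from culture on feeder fibroblasts with 1000 U/ml LIF and 10% serum. The EpiLCs were sampled at 48 h, after culture without serum or feeders with 10 ng/ml bFGF and 5 µM LGK974, an inhibitor of WNT secretion. No Hedgehog agonist or inhibitor is named for either group. Each group has 3 biological replicates, whose values are given in the order of replicates 1, 2 and 3 wherever a group has 3 values. The methods also name a different basal medium for each group. Differences in basal medium, serum, feeders, LIF, bFGF, LGK974 and time cannot be told apart.

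Totals lay between 16967741 and 35096210 expected counts per library, so that 3 counts, taken as the limit of detection, correspond to between 0.0855 and 0.177 CPM, counts scaled to the total of the library. All 6 naive pluripotency genes checked were lower in EpiLCs and all 6 primed genes were higher, among them Nanog (log2 fold change -4.81), Fgf5 (1.46) and Pou3f1 (4.07). Of 16 fibroblast markers 15 could be tested and 8 were lower in EpiLCs, with a summed level of 625, 2710 and 228 TPM (transcript counts scaled for length and library) in ESCs, where replicate 2 stood apart, and of 178 to 219 TPM in EpiLCs. Of these markers Lum alone was listed at 0 in any library. The methods describe a step that separates ESCs from feeders at the start of differentiation, and whether it was applied to the 0 h samples is not given in the sources used here. Primitive endoderm markers summed to between 82.7 and 153 TPM in ESCs and to at most 54.1 TPM in EpiLCs, with the late markers Ttr and Afp listed at 0 in every ESC library, and 7 of the 10 tested were lower in EpiLCs. Markers of the primitive streak and node summed to 432, 184 and 139 TPM in ESCs, to 55.7 TPM in EpiLC replicate 3 and to 14 and 13.9 TPM in the other EpiLC libraries, and of the 8 tested 5 were lower and 1 higher in EpiLCs. Neural markers were low in every library, at a sum of 1.93 to 5.33 TPM. In bulk RNA, fewer cells of a type and less RNA per cell cannot be told apart.

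The ligands were barely expressed. Shh, on chromosome 5 (28456840 to 28467101, minus strand; positions here and below are those of RefSeq on GRCm38), had 0, 3 and 3 expected counts in the ESC libraries and 2, 4 and 47 in the EpiLC libraries. In TPM these are 0, 0.14 and 0.08 in ESCs and 0.05, 0.10 and 1.23 in EpiLCs. EpiLC replicate 3 thus stood apart, while the other 5 libraries were at or near the limit of detection and the groups overlapped. The same library was the only one with a value above 0 for Noto, a node and notochord factor (1.24 TPM). It was also the highest EpiLC library for the notochord genes T (30.7 TPM, against 0.87 and 0.69 in EpiLC replicates 1 and 2) and Foxa2 (2.05 TPM, against 0.46 and 0.70). Both genes were higher still in every ESC library, at 40.0 TPM or more for T and 5.01 TPM or more for Foxa2, where Shh was at 0.14 TPM or less. Of the other streak and node markers, Mixl1, Eomes, Evx1, Gsc, Chrd and Nog were also highest in replicate 3 among the EpiLCs. Foxj1 was lowest there, with 3.42, 3.56 and 3.36 TPM in the EpiLC libraries. The part of node or notochord cells in the Shh value was not tested. Without the filter, the log2 fold change of Shh was 2.56 (standard error 1.39, edgeR adjusted p = 0.194).

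Ihh (chromosome 1, 74945315 to 74951672, minus strand) had 7, 5 and 7 counts in ESCs and 8, 7 and 2 in EpiLCs, or 0.31, 0.31 and 0.21 TPM against 0.20, 0.20 and 0.06 TPM. The groups did not overlap in TPM, but each value rests on 8 counts or fewer. Without the filter its log2 fold change was -0.77 (standard error 0.56, edgeR adjusted p = 0.327). Dhh, the ligand known from the gonad and peripheral nerve, was as low (0.137 ± 0.0643 against 0.217 ± 0.0971 TPM, SD, n = 3 each).

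**Figure D1:**
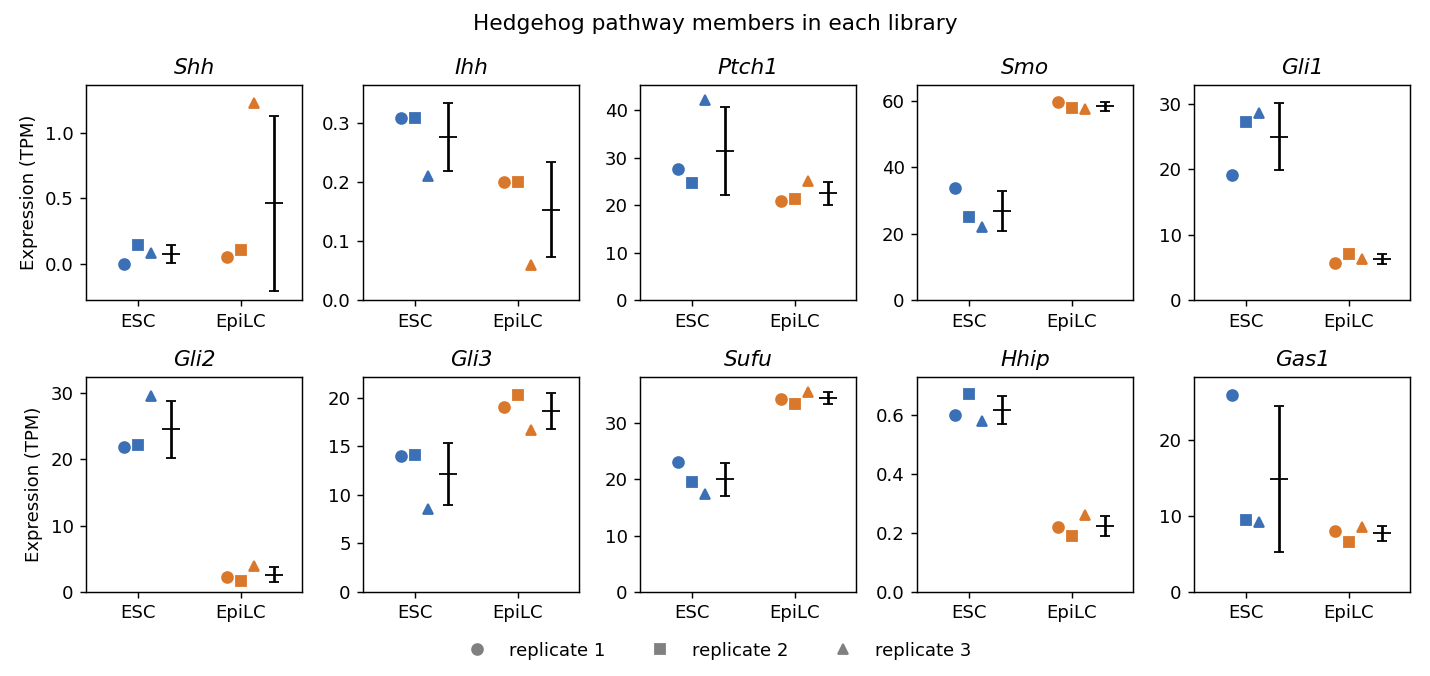
Expression in TPM (vertical axes, each with its own scale) of the 10 members in the ESC and EpiLC libraries, with 1 symbol per replicate and the mean ± SD (n = 3) as a black bar. Gli1 and Gli2 sit lower and Smo, Sufu and Gli3 higher in all 3 EpiLC libraries, and Shh reaches 1.23 TPM in EpiLC replicate 3 alone.

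Among the receptors, Smo rose, while Ptch1 and Gas1 did not pass the test. Smo (chromosome 6, 29735497 to 29761366, plus strand) encodes the membrane protein that passes the signal into the cell. Its ESC libraries had 33.7, 25.2 and 22.1 TPM and its EpiLC libraries 59.8, 57.8 and 57.5 TPM. All EpiLC libraries were above all ESC libraries and lay close together. The log2 fold change was 1.06 (standard error 0.14, 95% interval 0.72 to 1.41, edgeR's quasi-likelihood test with Benjamini-Hochberg adjustment over all genes tested, adjusted p = 0.00154).

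Ptch1 (chromosome 13, 63508328 to 63573460, minus strand) encodes the ligand receptor that restrains SMO and is itself a transcriptional target of the pathway. ESCs had 27.7, 24.7 and 42.1 TPM, whereas EpiLCs had 20.9, 21.3 and 25.2 TPM. ESC replicate 3 was the highest library, and the lowest ESC library lay below the highest EpiLC library. The log2 fold change of -0.54 (standard error 0.21, 95% interval -1.03 to -0.05) missed the threshold (edgeR adjusted p = 0.0689). It passed with DESeq2 (-0.55, adjusted p = 0.0248) and, in edgeR, with the replicate number as a block (-0.51, adjusted p = 0.0191). It also passed without ESC replicate 2 (-0.69, edgeR adjusted p = 0.0218), the ESC library with the highest fibroblast markers and the lowest Ptch1. Without ESC replicate 3 it was -0.26, and over all alternatives the adjusted p lay between 0.0191 and 0.185. The ratio of Smo to Ptch1 in TPM was 1.21, 1.02 and 0.524 in ESCs and 2.86, 2.71 and 2.29 in EpiLCs, so that Smo was the more abundant transcript in every EpiLC library. With 3 libraries against 3, the exact two-sided permutation test of this ratio gave p = 0.1, the smallest it can give.

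Gas1 (chromosome 13, 60174405 to 60177535, minus strand) encodes a membrane-anchored co-receptor that helps ligand bind PTCH1. ESCs had 26.0, 9.48 and 9.17 TPM, whereas EpiLCs had 8.0, 6.63 and 8.59 TPM. The groups did not overlap, but ESC replicate 1 was 2.83 times as high as ESC replicate 3, and the other ESC libraries were just above the EpiLCs. The log2 fold change of -0.99 (standard error 0.41, 95% interval -1.96 to -0.02) missed the threshold (edgeR adjusted p = 0.0866) but passed with DESeq2 (-0.99, adjusted p = 0.0257). It was -0.34 without ESC replicate 1. It passed without ESC replicate 2 (-1.22, edgeR adjusted p = 0.0389) and without ESC replicate 3 (-1.24, edgeR adjusted p = 0.0403), and over all alternatives the adjusted p lay between 0.0257 and 0.215. ESC replicate 1 was also the highest library for the summed streak and node markers and, among them, for T (179.9 TPM), Mixl1 (86.8 TPM), Eomes (114.8 TPM), Evx1 and Gsc. Nog was highest in ESC replicate 2, and Chrd, Foxj1 and Noto were highest in EpiLC libraries. The part of these cells in the Gas1 value was not tested. Of the primitive endoderm markers, Gata6, Gata4, Pdgfra and Dab2 were likewise highest in ESC replicate 1, and Col4a1 was highest in ESC replicate 2. For Sox17, Sox7, Foxa2, Lama1 and Hnf4a, ESC replicate 1 was the lowest of the ESC libraries but above every EpiLC library. The part of primitive endoderm cells in the Gas1 value was not tested either.

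Of the other co-receptors, Boc fell from 3.32 ± 1.301 to 1.31 ± 0.172 TPM (SD, n = 3 each), a log2 fold change of -1.38 (standard error 0.32, edgeR adjusted p = 0.0122). Its adjusted p was 0.0545 without EpiLC replicate 1. Cdon, a close relative of Boc, was at 8.68 ± 1.25 and 7.86 ± 0.907 TPM, with a log2 fold change of -0.20 and a 95% interval from -0.51 to 0.12 (edgeR adjusted p = 0.260).

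Among the GLI factors, Gli2 and Gli1 had the largest changes of the 8 members tested, both downward, and Gli3 the smallest change that was called, upward. Gli2 (chromosome 1, 118834061 to 119054405, minus strand) had 21.9, 22.1 and 29.5 TPM in the ESC libraries against 2.25, 1.66 and 3.89 TPM in the EpiLC libraries. Every EpiLC library was far below every ESC library, with EpiLC replicate 3 the highest of the EpiLCs. The log2 fold change was -3.29 (standard error 0.33, 95% interval -4.07 to -2.51, edgeR adjusted p = 4.70e-04). Of the 14468 genes tested, 380 (2.63%) had a log2 fold change as low or lower.

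Gli1 (chromosome 10, 127329882 to 127341579, minus strand), the activator that the pathway itself induces, had 19.1, 27.3 and 28.5 TPM in ESCs against 5.59, 7.04 and 6.2 TPM in EpiLCs. The groups were well apart, and its log2 fold change was -2.05 (standard error 0.18, 95% interval -2.47 to -1.62, edgeR adjusted p = 3.01e-04). Without ESC replicate 2, the library richest in fibroblast markers, the log2 fold changes were -1.98 for Gli1 and -3.37 for Gli2. The part of fibroblasts in the values of the other libraries was not tested.

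Gli3 (chromosome 13, 15463723 to 15730026, plus strand), the main source of GLI repressor, had 13.96, 14.06 and 8.51 TPM in ESCs against 19.1, 20.3 and 16.7 TPM in EpiLCs. All EpiLC libraries were above all ESC libraries, of which ESC replicate 3 was the lowest. The log2 fold change was 0.57 (standard error 0.19, 95% interval 0.12 to 1.01, edgeR adjusted p = 0.0444). This call was lost, with the log2 fold change between 0.52 and 0.66, without ESC replicate 1 (edgeR adjusted p = 0.0526), EpiLC replicate 1 (adjusted p = 0.115), EpiLC replicate 2 (adjusted p = 0.123) or EpiLC replicate 3 (adjusted p = 0.0683), while without ESC replicate 3 it was 0.38 (adjusted p = 0.0166).

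The make-up of the GLI transcripts therefore differed between the groups. Gli3 made up 25.4%, 22.2% and 12.8% of the summed GLI TPM in ESCs, but 70.9%, 70.0% and 62.3% in EpiLCs. The share of Gli2 was 39.7% ± 4.75 in ESCs and 9.54% ± 4.52 in EpiLCs, and that of Gli1 was 40.2% ± 4.74 and 22.8% ± 1.79 (SD, n = 3 each). The sum of all 3 factors was 61.7 ± 6.01 TPM among ESCs against 27.5 ± 1.25 TPM among EpiLCs (SD, n = 3 each). Neither the sum nor any of these shares overlapped between the groups, and each had an exact two-sided permutation p = 0.1, the smallest that 3 libraries against 3 allow.

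**Figure D2:**
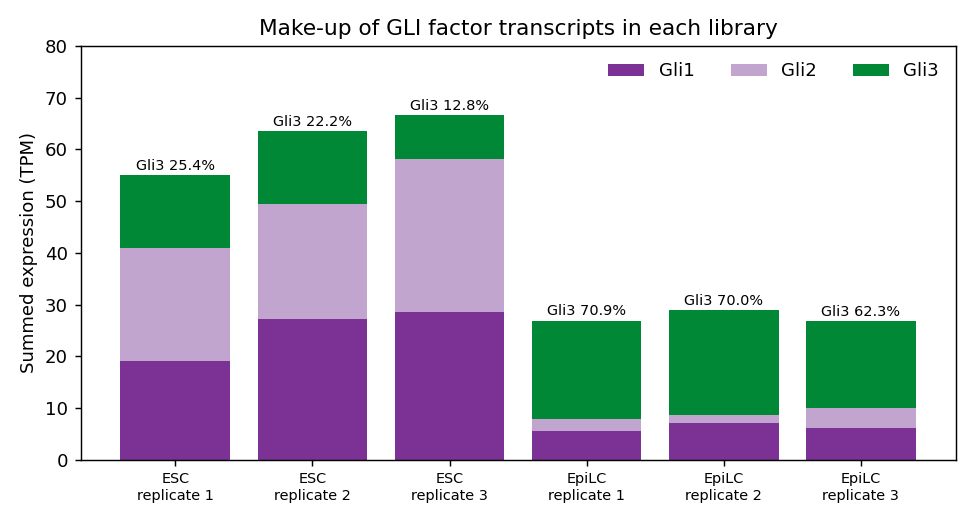
Stacked bars of the TPM of Gli1, Gli2 and Gli3 in each of the 6 libraries, with the share of Gli3 printed above each bar. Gli3 makes up between 12.8% and 25.4% of the sum in ESCs and between 62.3% and 70.9% in EpiLCs, where the bars are lower.

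The start-site windows of Gli2 and Gli3, paralogues that moved in opposite directions, and of Smo, the member that rose most, are shown for comparison. Each runs from 250 bases before to 50 bases after a RefSeq start site on GRCm38.p6, is written 5′ to 3′ on the strand of the gene, and has in capitals every GC box, the motif GGGCGG or CCGCCC that Sp factors bind. The windows are chr1:119053570-119053869 on the minus strand for Gli2, chr13:15463473-15463772 on the plus strand for Gli3 and chr6:29735247-29735546 on the plus strand for Smo. Those of Gli3 and Smo cross the start of the gene as placed above. That of Gli2 lies wholly within the gene, at an internal start site, as does the window of Ptch1, which is not shown.
Gli2: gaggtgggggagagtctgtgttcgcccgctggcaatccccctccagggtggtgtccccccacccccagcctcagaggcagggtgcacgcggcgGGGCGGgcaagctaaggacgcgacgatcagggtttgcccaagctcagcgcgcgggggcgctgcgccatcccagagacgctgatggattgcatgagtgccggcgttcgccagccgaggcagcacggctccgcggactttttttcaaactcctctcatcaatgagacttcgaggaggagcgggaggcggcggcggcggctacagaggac
Gli3: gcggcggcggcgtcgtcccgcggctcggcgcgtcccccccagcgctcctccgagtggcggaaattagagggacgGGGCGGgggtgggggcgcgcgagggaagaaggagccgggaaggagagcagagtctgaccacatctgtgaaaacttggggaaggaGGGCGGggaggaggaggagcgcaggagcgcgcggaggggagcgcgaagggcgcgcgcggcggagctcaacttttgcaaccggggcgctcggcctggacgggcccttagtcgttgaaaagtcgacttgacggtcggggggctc
Smo: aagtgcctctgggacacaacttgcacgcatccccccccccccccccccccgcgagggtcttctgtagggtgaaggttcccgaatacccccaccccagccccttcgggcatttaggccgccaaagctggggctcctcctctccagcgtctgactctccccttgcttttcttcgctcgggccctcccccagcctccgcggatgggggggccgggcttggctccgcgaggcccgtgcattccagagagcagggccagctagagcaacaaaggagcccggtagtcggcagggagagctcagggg

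A GC box was present in the windows of Ihh, Ptch1, Gli2, Gli3, Sufu, Hhip and Gas1, 7 of the 8 members with a window, and in 35.7% of all 32851 windows. It was absent from that of Smo. The number of CpG dinucleotides was 28 for Gli2, 39 for Gli3 and 17 for Smo, against a median of 7 over all windows, and between 12 and 47 for the 8 members. Searched on both strands, the GLI motif GACCACCCA, the TCF/LEF motif CTTTGAT and the SOX motif ACAATGG were not in these 8 windows, and they were in 0.253%, 3.73% and 3.66% of all windows.

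The inhibitors also moved apart. Sufu (chromosome 19, 46396896 to 46488804, plus strand), whose product binds GLI proteins in the cytoplasm, had 23.1, 19.5 and 17.3 TPM in ESCs against 34.3, 33.3 and 35.4 TPM in EpiLCs. The EpiLC libraries were all higher, with a log2 fold change of 0.73 (standard error 0.11, 95% interval 0.48 to 0.99, edgeR adjusted p = 0.00206). Relative to the summed GLI TPM, Sufu was at 0.329 ± 0.082 in ESCs and 1.25 ± 0.0903 in EpiLCs (SD, n = 3 each, exact two-sided permutation p = 0.1).

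Hhip (chromosome 8, 79965850 to 80058060, minus strand) encodes a membrane protein that binds and sequesters ligand and is a target of the pathway. It was low throughout, at 57, 49 and 72 counts in ESCs and 34, 28 and 34 in EpiLCs, or 0.60, 0.67 and 0.58 TPM against 0.22, 0.19 and 0.26 TPM. The groups did not overlap, and the log2 fold change was -1.50 (standard error 0.23, 95% interval -2.04 to -0.97, edgeR adjusted p = 0.00234). With limma on log2(TPM + 1), which understates the change of low genes, it was -0.40.

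**Figure D3:**
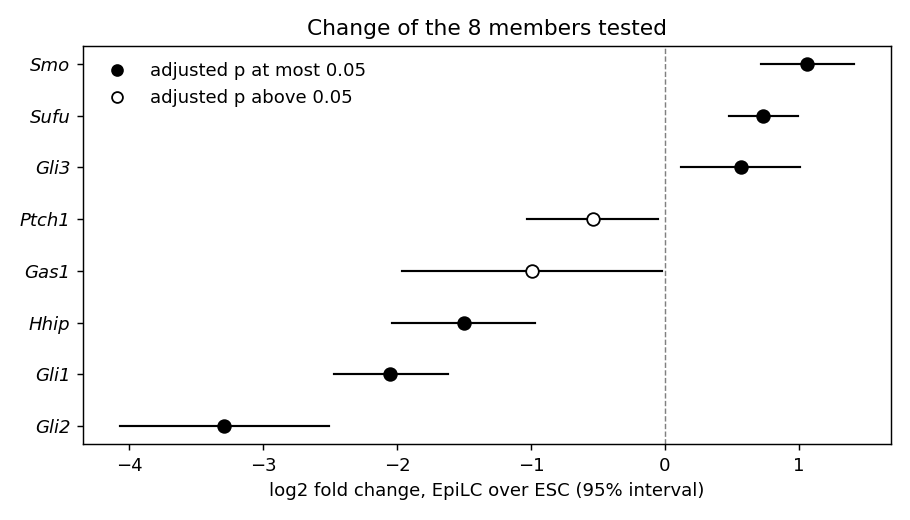
Log2 fold change from ESC to EpiLC (points) with its 95% interval (lines) for the 8 members tested with edgeR. Filled points had an adjusted p of at most 0.05, from Gli2 at -3.29 to Smo at 1.06, and the open points are Ptch1 at -0.54 and Gas1 at -0.99.

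In all, 3 of the 8 members tested were called higher in EpiLCs (Smo, Sufu and Gli3) and 3 lower (Gli1, Gli2 and Hhip), with 0.05 as the threshold of the adjusted p. Among all 14468 genes tested, 45.4% were called, 22.6% higher and 22.8% lower, so that a call by itself was common in this comparison. Smo was 1 of the 8.78% of genes called with a log2 fold change above 1, and Gli1, Gli2 and Hhip were among the 11.5% called with one below -1. The TPM ranges of the groups did not overlap for 7 of the 8 members tested, against 59.5% of all genes tested. Without ESC replicate 2, 3 members were higher and 5 lower, the additional ones being Ptch1 and Gas1, and without ESC replicate 3 Gas1 alone was added. DESeq2 likewise called 5 lower. The call of Gli3 was lost in the 4 fits named above, which left 2 members higher.

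In their order by level, the members formed a broad group in ESCs and spread out in EpiLCs. In ESCs, the mean TPM ran from Ptch1 (31.5) through Smo (27.0), Gli1 (24.98), Gli2 (24.5), Sufu (19.95) and Gas1 (14.9) to Gli3 (12.2), and the ranges of neighbours in this order overlapped. In EpiLCs, the order was Smo (58.4), Sufu (34.4), Ptch1 (22.5), Gli3 (18.7), Gas1 (7.74), Gli1 (6.28) and Gli2 (2.60), and only the ranges of Gas1 and Gli1 overlapped among these neighbours. Hhip, Ihh and Shh were below 1 TPM on average in both groups. Smo moved from above 63.5% to above 79.3% of the genes tested, and Gli2 from above 61.5% to above 23.3%.

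The spread between replicates was wider in ESCs for most members. The SD of log2 CPM over 3 libraries lay between 0.10 (Hhip) and 0.84 (Gas1) in ESCs and between 0.04 (Smo) and 0.63 (Gli2) in EpiLCs, against medians over all genes tested of 0.20 and 0.11. Gli2 and Hhip were the members that varied more in EpiLCs than in ESCs. For 14 of the 15 fibroblast markers tested, replicate 2 was the highest and replicate 3 the lowest of the ESC libraries. Among the 8 members tested, Gli3 and Hhip had this order, and the part of fibroblasts in their values was not tested. Both are given without ESC replicate 2 as a check on this library, with log2 fold changes of 0.68 for Gli3 and -1.44 for Hhip.

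The genes most like Smo over the 6 libraries, by the root mean square difference of log2 CPM after centring each gene on its mean, were Obsl1 (0.062), Zfp334 (0.079) and Pphln1 (0.080). Among those most like Gli2 were Fbxo15 (0.18) and Hsd17b14 (0.22). They were sought among the 13101 genes that averaged 1 CPM or more.

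Beyond the 10 members, 41 other genes of the pathway were examined, from ligand release to the enzymes that process GLI proteins. All 41 could be tested, 9 were higher and 8 lower in EpiLCs, which is 41.5% called against 45.4% of all genes, and their median log2 fold change was 0.02. Without EpiLC replicates 1, 2 or 3, the number lower was 3, 5 and 5. Without ESC replicate 1 or EpiLC replicate 2, 6 were higher.

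Of the genes for the maturation and release of ligand, Scube2, Scube3 and Disp1 were lower, and Scube1, Disp2 and Hhat did not pass the test. Scube2, whose product releases ligand from cells, fell from 1.44 ± 0.30 to 0.18 ± 0.04 TPM (SD, n = 3 each), a log2 fold change of -3.02 (edgeR adjusted p = 4.88e-04). Scube3 had one of -1.58 and Disp1, which exports ligand, one of -0.91 (edgeR adjusted p = 0.00357 and 0.0193). Gpc3, a glypican that binds ligand and limits signalling, was far more abundant, and fell from 194.3 ± 73.1 to 36.8 ± 8.03 TPM (SD, n = 3 each), a log2 fold change of -2.45 (edgeR adjusted p = 8.53e-04). Lrp2, an endocytic receptor that binds SHH, rose from 7.65 ± 2.13 to 25.2 ± 2.03 TPM (SD, n = 3 each), a log2 fold change of 1.66 (edgeR adjusted p = 9.43e-04).

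Of the genes that act between SMO and the GLI proteins, some rose, some fell and others did not pass the test. Gpr161, a ciliary receptor that keeps protein kinase A active and so favours GLI repressor, rose from 2.11 ± 0.33 to 5.00 ± 0.284 TPM (SD, n = 3 each), a log2 fold change of 1.19 (edgeR adjusted p = 0.00107). The catalytic subunits of protein kinase A rose with log2 fold changes of 0.60 for Prkacb (edgeR adjusted p = 0.00151) and 0.46 for Prkaca (adjusted p = 8.88e-04). The regulatory subunit Prkar1a did not pass the test (0.06, adjusted p = 0.632). Grk2, the kinase that phosphorylates active SMO, and the arrestins Arrb1 and Arrb2 had log2 fold changes of 0.44, 1.35 and 0.48 (edgeR adjusted p = 0.00310, 0.00137 and 0.0239). The casein kinase gene Csnk1a1, whose product phosphorylates GLI proteins, and Evc2, which encodes a ciliary partner of SMO, fell with log2 fold changes of -0.24 and -0.37 (edgeR adjusted p = 0.0278 and 0.0107). Stk36, Ulk3, Gsk3a, Gsk3b, Csnk1d, Evc, Tulp3, Efcab7 and Iqce did not pass the test. Kif7, the ciliary kinesin that regulates GLI proteins, did not pass the test either (7.91 ± 0.108 against 7.96 ± 0.259 TPM, SD, n = 3 each). Its log2 fold change was -0.04 with edgeR, with a 95% interval from -0.26 to 0.17 (adjusted p = 0.717), and 0.01 with limma on TPM.

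**Figure D4:**
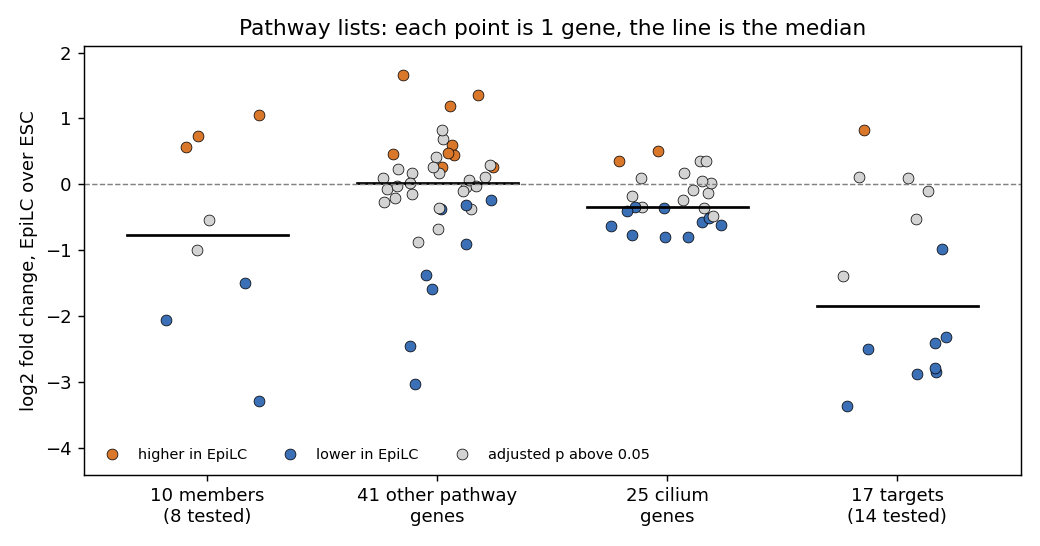
Log2 fold change from ESC to EpiLC of each gene tested in 4 lists, coloured by its edgeR call, with the median of each list as a black line. The medians lie at -0.77 for the members, 0.02 for the other pathway genes, -0.34 for the cilium genes and -1.85 for the targets.

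Vertebrate Hedgehog signalling needs the primary cilium. Of 27 entries in a list of cilium genes, 25 had a row and were tested, since Talpid3 and Kiaa0586, names for a single gene, had no row under these names. RefSeq gives Talpid3 as a synonym of 2700049A03Rik, which was lower in EpiLCs (log2 fold change -0.43, edgeR adjusted p = 0.0348) and is not in the counts that follow. Of the 25, 10 were lower and 2 higher in EpiLCs, 48.0% called against 45.4% of all genes, with a median log2 fold change of -0.34. The largest falls were small, at -0.80 for Ttbk2, a kinase that starts cilium assembly, -0.79 for Ift172, -0.77 for Ift140 and -0.63 for Wdr19, which encode parts of the transport machinery of the cilium (edgeR adjusted p between 0.00113 and 0.0107). B9d1 and Ift80 were higher, by 0.50 and 0.35 on the log2 scale (edgeR adjusted p = 0.00366 and 0.0200). Ift80 lost its call without EpiLC replicate 1, 2 or 3, so that 1 cilium gene was higher in each of those fits, and 4 were higher without ESC replicate 1.

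Of 17 genes known as Hedgehog targets in various embryonic tissues, 14 could be tested, and Foxl1, Nkx2-2 and Olig2 had too few counts. In EpiLCs 8 were lower and 1 was higher, 64.3% called against 45.4% of all genes, with a median log2 fold change of -1.85. Many of them are controlled by other signals as well. Bmp4, which encodes a secreted signal, fell from 37.0 ± 10.3 to 3.65 ± 0.794 TPM (SD, n = 3 each), a log2 fold change of -3.36 (edgeR adjusted p = 2.07e-04). Snai1, a factor of epithelial-mesenchymal transition, had 42.6, 21.3 and 11.8 TPM in ESCs and a log2 fold change of -2.85 (edgeR adjusted p = 0.00377). The streak markers T, Mixl1, Evx1 and Gsc had the same order over the ESC libraries, while Eomes, Chrd, Nog and Foxj1 had other orders, and the part of streak cells in the Snai1 value was not tested. Foxf2 and Osr1, factors of mesenchyme, had log2 fold changes of -2.87 and -2.79 (edgeR adjusted p = 0.0122 and 0.0324) and were highest in ESC replicate 2, at 2.31 and 3.57 TPM, the library highest in fibroblast markers. Osr1 lost its call without that library (edgeR adjusted p = 0.0677) and without ESC replicate 1, EpiLC replicate 1 or EpiLC replicate 3 (adjusted p between 0.0729 and 0.11), and Foxf2 lost its call without EpiLC replicate 2 (edgeR adjusted p = 0.0504). Of the other genes named here as lower, Bmp4, Boc, Scube2 and Disp1 shared the order of the fibroblast markers over the ESC libraries. Without ESC replicate 2 the log2 fold changes were -3.14 for Bmp4, -1.10 for Boc and -2.85 for Scube2. The part of fibroblasts in these values was not tested. Bcl2, an inhibitor of apoptosis, was the target that rose, with a log2 fold change of 0.82 (edgeR adjusted p = 0.0178), and its adjusted p was 0.0720 without EpiLC replicate 1. Ccnd1, Mycn and Rab34, expressed between 43.7 and 218 TPM in ESCs, did not pass the test (log2 fold changes -0.53, -0.10 and 0.12). Without EpiLC replicate 1 or EpiLC replicate 3, 5 targets were lower.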

How the data were processed

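RNA-seq of 3 ESC and 3 EpiLC libraries was analysed. The authors trimmed adapters with cutadapt 1.16, mapped stranded single-end reads with STAR 2.5.2a and counted them with RSEM 1.3.0 against mm10 RefSeq genes. They deposited expected counts, in which reads shared between genes are divided (between 4.27% and 4.65% of values were not whole), and TPM. Their methods name DESeq2 1.16.1 and, for EpiLCs, a longer culture than the 48 h of the labels.

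Expected counts were rounded, scaled by TMM and tested with edgeR 4.0.16 (quasi-likelihood test, R 4.3.3) after filterByExpr, which left 14468 of 24736 genes. P-values were adjusted by Benjamini-Hochberg over these genes, with a threshold of 0.05. Standard errors are the log2 fold change divided by the square root of F. Limits of detection cover counting error only. The members and lists were chosen with earlier results of these data known. Named list genes are those called with the largest changes (up to 4 per direction, mean of at least 1 TPM in the higher group) and fixed paralogues and regulators; Disp1, Prkaca, Prkar1a, Grk2, Arrb2, Csnk1a1, Evc2, Ccnd1, Mycn, Rab34, 2700049A03Rik, genes named as not passing the test and the marker genes of single libraries were added after their values were seen, and genes that the rule named but the text does not give are not reported here. Alternatives were DESeq2 1.42.0, upper-quartile scaling, other filters, a replicate block, limma 3.58.1 on log2(TPM + 1) and log2(TPM + 0.1), and leaving out each library. The tests were tried on simulated data. Positions, promoter windows and strands come from RefSeq and GENCODE on GRCm38, the build also called mm10. Windows were found for 8 of 10 members.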

Additional observations from a re-analysis of the deposited data

How the results depend on the processing

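Gli1, Gli2, Hhip, Smo and Sufu kept their direction and an adjusted p of at most 0.05 under all 13 alternatives run. Called lower were 3 members with edgeR, 5 with DESeq2 and 3 to 5 when 1 library was left out. Ptch1 passed the threshold with DESeq2 (-0.55) and with the replicate block (-0.51), and ranged from -0.69 to -0.26 when 1 library was left out. Gas1 passed with DESeq2 (-0.99) and ranged from -1.24 to -0.34, and Gli3 from 0.38 to 0.68. Other pathway genes called lower numbered 3 to 8 when 1 library was left out, cilium genes called higher 1 to 4, and targets 0 to 1 higher and 5 to 10 lower. With at least 10 counts in every library, 5 targets were lower, against 8, as fewer genes were tested. When 1 library was left out, all genes called numbered 2144 to 3572 higher and 2100 to 3609 lower, against 3267 and 3304. Among single genes, Kif7, which was not called, reversed to 0.01 with limma on log2(TPM + 1) and on log2(TPM + 0.1). Apart from the stricter filter, the cause was not tested.

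The replicate numbers of the labels were used as a block in an alternative. Across genes, the deviations of the same-numbered pairs had Pearson's r of 0.01, 0.19 and 0.17, and 4 of 6 libraries correlated best with their own number. With the replicate block 3 members were higher and 4 lower, and 2979 genes in all were higher and 3106 lower. Depth limits Shh, Ihh and Hhip, which rest on at most 72 counts per library.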
